A study of Mus musculus with 2 samples.

Results

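The cytochrome P450 genes code for heme enzymes that add oxygen to lipids, steroids, vitamins, drugs and other foreign compounds. All GENCODE M21 protein-coding genes whose name starts with Cyp and a number were taken, which gave 100 of 21938 protein-coding genes, in 17 families and 40 subfamilies on 15 chromosomes. They were described in DNase-seq data: DNase I cuts chromatin where the DNA is accessible, and sequencing of the cut ends shows where that is. The samples were left cerebral cortex of female B6CASTF1/J mice (the first-generation cross of C57BL/6J and CAST), 18 to 20 months old, in 1 group of 2 libraries, called library 1 and library 2 after their replicate numbers. Both carry the same donor identifier on different tissue samples, and no label says that there was more than 1 animal, so the spread between them may be technical. The design holds no comparison of conditions, and all values below are descriptions of each library and of the spread between both, with no test.

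P450 enzymes are named by family (a number), subfamily (a letter) and gene. Families with few members mostly carry out fixed steps of cholesterol, bile acid, steroid hormone, retinoic acid and vitamin D metabolism. The Cyp2, Cyp3 and Cyp4 families have grown by local gene duplication and hold the enzymes for foreign compounds and fatty acids, many of them best known from the liver. In the brain the family is known above all for the removal of cholesterol, which cannot leave across the blood-brain barrier as such and is first hydroxylated in neurons by Cyp46a1. Since cortex is a mixture of cells, a weakly open site in many cells and a strongly open site in few cells cannot be told apart in these data.

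Each library had a list of peaks, regions of many cuts, with a signal per peak that the authors deposited with no normalization stated. A peak within 500 bases of any annotated start of a gene is called a promoter peak, and the promoter signal is that of the strongest such peak. The lists held 132054 peaks in library 1 and 139799 in library 2, with median signals of 0.640 and 0.641. The number of reads is unknown, so intervals cover the counting of genes only. Footprints, short stretches inside open DNA that are cut less than their surroundings, numbered 271439 and 323715. A promoter peak in both libraries was listed for 63.6% of all protein-coding genes. The lists of cell type markers are short, so their counts do not show which cell types were present. Of these markers, 5 of 5 genes for excitatory neurons, 4 of 5 for inhibitory neurons and 4 of 5 for astrocytes had one in both libraries. The count was 1 of 4 for oligodendrocytes, 0 of 4 each for microglia and endothelial cells, 2 of 4 for mural and leptomeningeal cells and 1 of 3 for ependymal and choroid plexus cells. Of 6 liver genes none was open in both libraries, and only Apob had one in library 2, of signal 0.265. Of 3 genes of adrenal and gonad steroid cells, Star had one (0.851 and 1.08), while Nr5a1 and Hsd3b1 had none.

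The sequences at the P450 promoters that were open in this tissue are shown first, because the footprints in them and the letters they contain are referred to below. For each metabolic role the member with the strongest promoter peak was taken where a base of that peak lay in footprints of both libraries, and Cyp51 was added after its values were seen. Each run is the part of the peak shared by both libraries, up to 300 bases and without untranslated exon, from the GRCm38 (mm10) genome, read 5′ to 3′ in the direction of the gene. Capitals mark bases inside footprints of both libraries.
Cyp46a1, before the start, + strand, chr12:108334041-108334340: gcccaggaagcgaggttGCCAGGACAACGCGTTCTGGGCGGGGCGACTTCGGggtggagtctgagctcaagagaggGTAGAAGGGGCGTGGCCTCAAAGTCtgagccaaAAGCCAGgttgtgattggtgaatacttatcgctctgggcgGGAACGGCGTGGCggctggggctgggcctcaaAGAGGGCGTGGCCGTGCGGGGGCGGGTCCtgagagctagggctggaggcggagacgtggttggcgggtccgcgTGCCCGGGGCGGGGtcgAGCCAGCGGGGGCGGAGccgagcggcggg
Cyp2u1, before the start, − strand, chr3:131303295-131303360: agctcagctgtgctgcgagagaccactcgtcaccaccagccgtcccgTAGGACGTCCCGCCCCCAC
Cyp20a1, first coding exon and intron, + strand, chr1:60343386-60343520: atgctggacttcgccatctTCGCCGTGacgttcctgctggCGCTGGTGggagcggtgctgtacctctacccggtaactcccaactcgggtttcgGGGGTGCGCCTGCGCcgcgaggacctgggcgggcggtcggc
Cyp2r1, first intron, − strand, chr7:114562521-114562700: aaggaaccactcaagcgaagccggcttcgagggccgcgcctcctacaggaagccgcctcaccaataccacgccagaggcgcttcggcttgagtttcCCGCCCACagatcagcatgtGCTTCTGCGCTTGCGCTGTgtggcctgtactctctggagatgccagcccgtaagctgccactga
Cyp17a1, inside the gene, − strand, chr19:46670781-46670960: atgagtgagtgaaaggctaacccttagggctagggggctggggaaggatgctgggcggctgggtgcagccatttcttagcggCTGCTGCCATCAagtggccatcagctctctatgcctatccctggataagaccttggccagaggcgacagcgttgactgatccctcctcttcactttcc
Cyp51, before the start, − strand, chr5:4104761-4104900: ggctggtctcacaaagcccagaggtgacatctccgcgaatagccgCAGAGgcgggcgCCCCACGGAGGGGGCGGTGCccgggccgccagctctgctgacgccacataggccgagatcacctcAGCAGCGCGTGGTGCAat

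The Cyp46a1 stretch had 7 runs of footprinted bases shared by both libraries, 140 of its 300 bases or 46.7%. The shared share was 28.8% of 66 bases at Cyp2u1, 29.3% of 140 at Cyp51, 23% of 135 at Cyp20a1, 15% of 180 at Cyp2r1 and 6.67% of 180 at Cyp17a1. The GC box (GGGCGG or its reverse complement, read by Sp and KLF factors) occurred 5 times in the Cyp46a1 stretch, and 4 of these lay wholly inside shared footprints. The single GC boxes of Cyp2u1, Cyp2r1 and Cyp51 also lay wholly inside shared footprints. Those of Cyp20a1, a pair overlapping by 2 bases, and of Cyp17a1 had no base in one. A match of letters is a description and not a measured binding site. Cyp1b1 and Cyp2d22 were the strongest open members of their roles too, but no base of their peaks was in footprints of both libraries.

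Most P450 promoters were closed in aged cortex. Of the 100 genes, 23 carried promoter peaks in both libraries (exact binomial 95% interval 15.2 to 32.5%), against 63.6% of all protein-coding genes (63 to 64.3%). A further 4 had one in library 1 alone, 4 in library 2 alone, and 69 in neither, so each library alone counted 27. The same picture came from the other files of the authors: a footprint near a start in both libraries was listed for 21 P450 genes against 61.5% of all genes. A base with a false discovery rate of the cut rate under 0.05 was listed there in both libraries for 25 P450 genes against 64.4% of all genes. These 25 were the 23 above and 2 more, Cyp1a1 and Cyp19a1.

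The open P450 promoters were also weaker than open promoters in general. The median signal of the 23 was 1.13, against 3.32 for the 13956 genes open in both libraries, and 6 of the 23 lay above that general median. The 2 sets differ in promoter sequence, and the medians by sequence class are given below with the CpG content. On the log2 scale the median ratio of library 2 to library 1 was 0.21 over the 23 genes (SD 0.38), against 0.11 over all open genes (SD 0.28). Library 2 was the higher one for 17 of the 23 and for 68.1% of all open genes. None of the 23 differed more than 2-fold between libraries, which 0.537% of all open genes did.

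**Figure D1:**
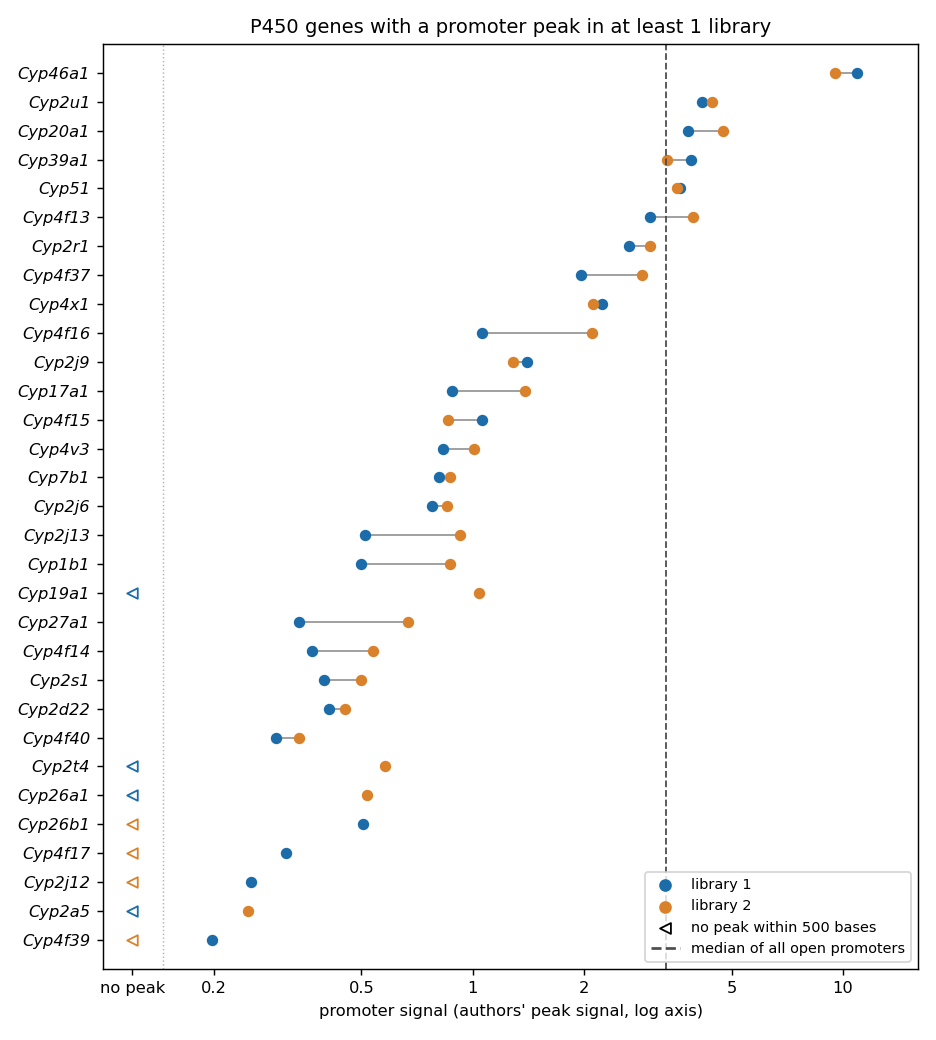
Promoter signal of each P450 gene with a promoter peak in at least 1 library (log axis, authors' peak signal), blue for library 1 and orange for library 2, with open triangles where a library listed no peak within 500 bases. Cyp46a1 lies at 9.5 and 10.9, apart from the rest, 6 genes have means above the dashed median of all open promoters at 3.32, and 8 genes have a peak in 1 library only.

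In brain cholesterol and bile acid synthesis 5 of 7 genes were open in both libraries, 71.4% (exact binomial 95% interval 29 to 96.3%), which is near the 63.6% of all protein-coding genes. Cyp46a1 (chr12:108334381-108362234), the neuronal hydroxylase that starts the export of brain cholesterol, had a promoter signal of 10.9 in library 1 and 9.5 in library 2, a mean of 10.2 ± 0.99 (SD, n = 2). It stood at percentile 99.4 among all promoters open in both libraries, and its lower value was above the highest of every other P450 gene, 4.74. The peak ended 41 bases before the start, in a window with a GC share of 69%. Over the gene and 10 kb on either side there were 9 and 10 peaks, against a median of 1 in both libraries for P450 genes.

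Cyp51, the lanosterol demethylase of cholesterol synthesis, had signals of 3.63 and 3.57 (mean 3.60 ± 0.0452), the closest pair among the strong members. Cyp39a1, which hydroxylates the oxysterol made by Cyp46a1, had 3.88 and 3.35 at a peak 105 bases from its own start that a start of the neighbour Slc25a27, a mitochondrial carrier, shares. Both genes lay near percentile 54 among open promoters, 54.2 for Cyp51 and 54.3 for Cyp39a1. Cyp7b1, the oxysterol hydroxylase that also acts on steroids of the brain, was weaker at 0.810 and 0.869. Cyp27a1, the mitochondrial sterol hydroxylase of bile acid synthesis, was weaker still at 0.340 and 0.666, with its peak 260 and 214 bases from the start and footprints in library 2 alone. The pair of enzymes that commit sterols to bile acids in the liver had no promoter peak. Cyp7a1, the rate-limiting enzyme, had no peak within 10 kb of the gene in either library, and Cyp8b1, which directs synthesis to cholic acid, had 2 and 3 peaks there, the nearest 9856 and 5946 bases from a start.

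Vitamin D genes differed among themselves. Cyp2r1 (chr7:114549682-114562972), the main hydroxylase that makes the circulating form, had promoter signals of 2.64 and 3.02 in its first intron. Cyp27b1, which makes the active hormone, had no promoter peak, with the nearest peak 6210 bases away in both libraries. Cyp24a1, which breaks the hormone down, had no promoter peak and no peak within 10 kb of the gene, although its start is rich in CpG (observed over expected 0.68).

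Steroid hormone synthesis was mostly closed, with 1 of 6 genes open in both libraries. Cyp17a1, the hydroxylase and lyase on the way to androgens, had signals of 0.878 and 1.38. That peak lay inside the gene near the start of a retained-intron transcript, 1974 and 2014 bases from the nearest coding start. It touched coding sequence, an overlap of any length. Cyp19a1, the aromatase that makes estrogens, had a peak of 1.04 in library 2, which lay 494 bases from a start. Library 1 had a peak of 1.12 at the same place, 514 bases from that start and so outside the window, so both libraries were open there. This start too was internal, with the nearest coding start 11862 bases from the peak. Cyp11a1, which cuts the cholesterol side chain, had no promoter peak but 6 and 11 peaks over the gene and flank, the nearest 1531 and 1518 bases from a start. Cyp21a1 had 3 and 2 such peaks, and the adrenal pair Cyp11b1 and Cyp11b2 had none.

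The 3 retinoic acid hydroxylases, which remove this signal from tissue, showed peaks near their starts in 1 library at most. Cyp26b1 had a promoter peak of 0.504 in library 1 only, at a start 5270 bases inside the gene. Its strongest peak lay in an intron at 2.41 and 2.61, 1763 bases from the nearest start. Cyp26a1 had a peak of 0.518 in library 2 only, which touched coding sequence and lay 363 bases from the coding start. It also had a peak of 1.42 in each library 5916 bases from its nearest start. Cyp26c1 had none near its starts. Of 9 other genes of the retinoid pathway, 6 were open in both libraries, which is near the 63.6% of all protein-coding genes. The median signal of the list was 0.372.

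Of the 3 targets of the aryl hydrocarbon receptor, a sensor of dioxins and plant compounds, only Cyp1b1 had a promoter peak in both libraries. Its signals were 0.497 and 0.869, at an internal start 1406 bases inside the gene, and the peaks touched coding sequence. A stronger peak stood 580 bases upstream of the gene at 2.14 and 2.63, outside the window. Cyp1a1, the best known target, had no promoter peak, but bases near its starts reached a false discovery rate of 0.027 and 0.0073. Its nearest peaks were 913 and 773 bases from the nearest of its annotated starts. In library 1 that peak lay inside the gene, on the side of an internal start. Cyp1a2 had no promoter peak, and over the gene and flank it had 1 peak in library 1 and none in library 2. The receptor itself was open: Ahr had 2.85 and 3.11 and its partner Arnt 3.50 and 3.22.

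**Figure D2:**
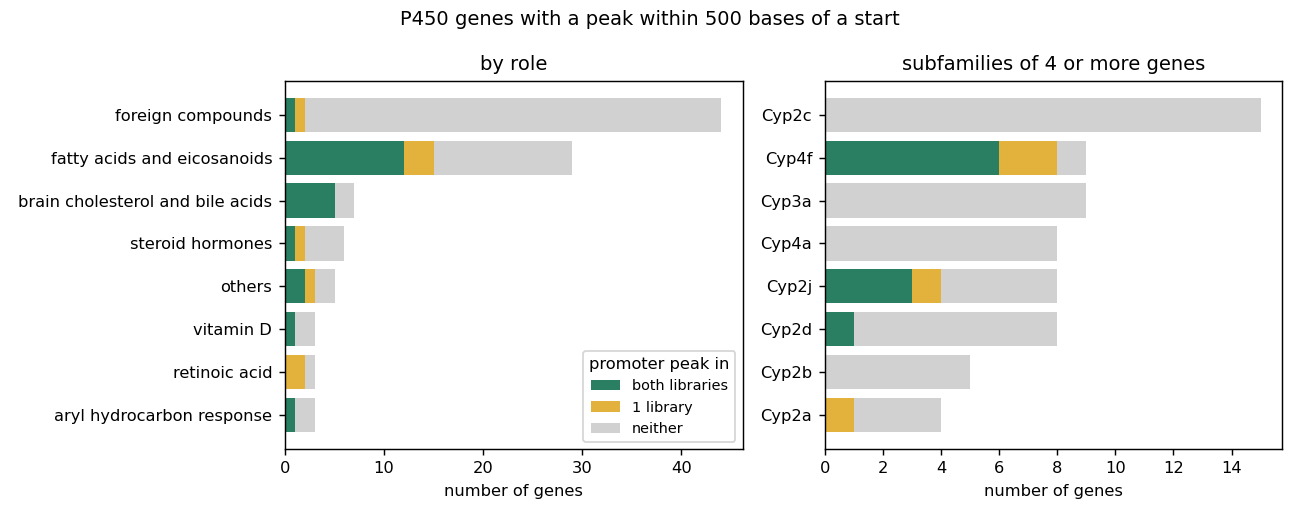
Number of P450 genes by metabolic role (left) and in subfamilies of 4 or more genes (right), split into those with a promoter peak in both libraries, in 1 library and in neither. Open in both libraries are 5 of 7 cholesterol genes (71.4%) and 12 of 29 fatty acid genes (41.4%), against 63.6% of all protein-coding genes. The 15 Cyp2c, 9 Cyp3a, 8 Cyp4a and 5 Cyp2b genes have none in either library.

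Fatty acid and eicosanoid enzymes supplied 12 of the 23 open genes, out of 29. That share of 41.4% (23.5 to 61.1%) lay under the 63.6% of all protein-coding genes. Cyp2u1 (chr3:131288441-131303227), a hydroxylase of long-chain fatty acids known from brain and thymus, had signals of 4.16 and 4.44 (mean 4.30 ± 0.199). The start of the non-coding gene 4930534D22Rik lies at the same peak. Cyp4x1, a P450 known for its transcript in brain, had 2.23 and 2.11 at a peak shared with its antisense gene Cyp4x1os. Cyp4v3, a fatty acid hydroxylase, had 0.830 and 1.01, at a CpG-rich start (observed over expected 0.69) that was weak for its kind.

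Among the 8 Cyp2j genes, whose products make epoxides from arachidonic acid, 3 were open in both libraries. Cyp2j9, known from brain, had 1.4 and 1.28, Cyp2j6 0.776 and 0.851, and Cyp2j13 0.510 and 0.925. Cyp2j12 had a peak of 0.252 in library 1 only. The other 4, Cyp2j5, Cyp2j7, Cyp2j8 and Cyp2j11, had no promoter peak, and only Cyp2j7 had any peak over the gene and flank (2 and 1). In the Cyp4a subfamily, enzymes of fatty acid omega-oxidation known as targets of Ppara in liver, 0 of 8 genes had a promoter peak in either library and none had more than 1 peak over gene and flank. Ppara itself had promoter signals of 1.66 and 1.52. The remaining Cyp4 gene, Cyp4b1, had no promoter peak and 2 peaks over gene and flank in each library.

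The Cyp4f genes, omega-hydroxylases of leukotrienes and other fatty acids, had 6 of 9 open in both libraries, 66.7% (29.9 to 92.5%), which is near the 63.6% of all protein-coding genes, and 2 more in library 1. In a run of duplicated genes on chromosome 17, Cyp4f13 (chr17:32924688-32947402) had 3.02 and 3.94 across its start. Cyp4f37 had 1.96 and 2.86, but at a peak that touched coding sequence, near a retained-intron transcript whose start lies 13393 bases into the gene. Cyp4f16 had 1.06 and 2.10, the widest gap between libraries in the subfamily (0.98 on the log2 scale). The weaker members were Cyp4f15 at 1.06 and 0.857, Cyp4f14 at 0.368 and 0.536, and Cyp4f40 at 0.293 and 0.339, the weakest open member of all. Cyp4f17 had a peak of 0.313 and Cyp4f39 of 0.197, both in library 1 alone, the second at an internal start. Cyp4f18, which lies on chromosome 8 away from the others, had no promoter peak and 2 peaks over gene and flank in each library. The starts had a median CpG ratio, observed over expected, of 0.09, and the highest were Cyp4f39 at 0.46 and Cyp4f17 at 0.45.

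**Figure D3:**
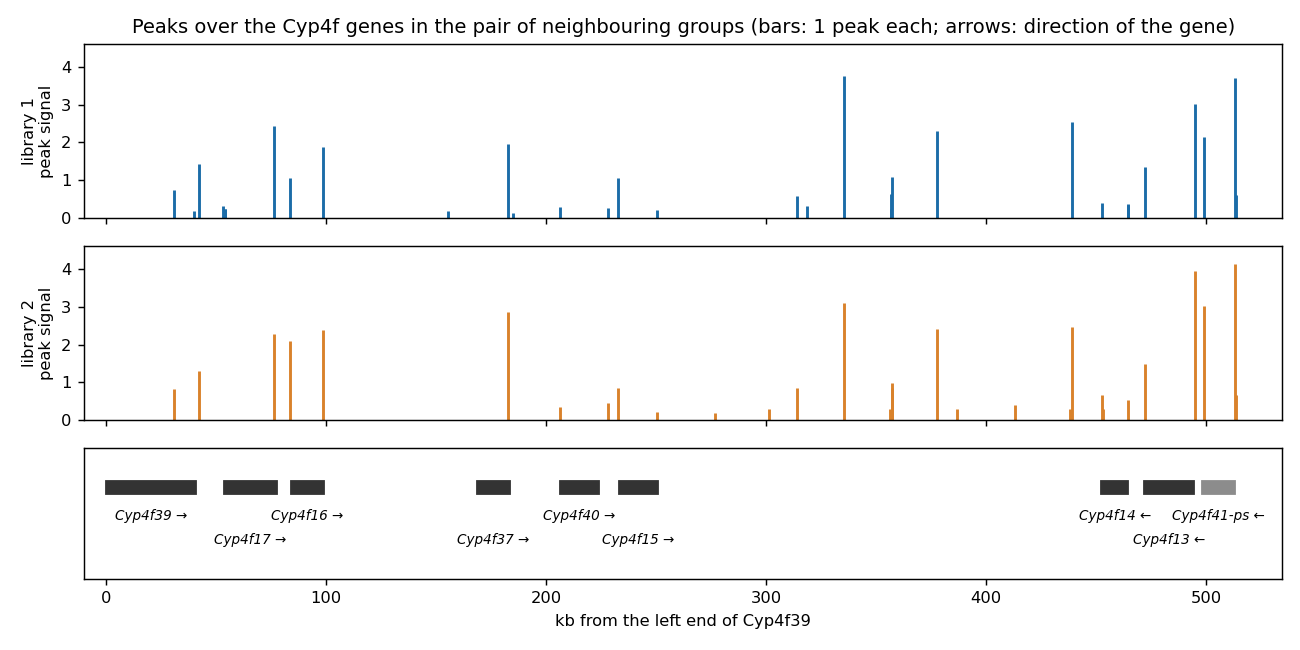
Peak signal along the run of Cyp4f genes on chromosome 17 in library 1 (top) and library 2 (middle), with genes below (grey for the pseudogene Cyp4f41-ps, other genes not drawn), in kb from the left end of Cyp4f39. The stronger peaks stand at the same places in both libraries. They include those at the starts of Cyp4f13 and Cyp4f16, at the ends of Cyp4f17 and Cyp4f37 and between the genes drawn. Among the genes drawn, Cyp4f41-ps has the highest promoter signal, 3.70 and 4.13. The starts of Cyp4f40 and Cyp4f14 carry low peaks.

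Genes for foreign compounds, the drug-metabolizing enzymes of the liver, were nearly all closed: 42 of 44 had no promoter peak in either library. The 1 open in both was Cyp2d22, with 0.408 and 0.450, and it was not open with the shorter peak list or with peaks above the median signal only. Cyp2a5 had a peak of 0.247 in library 2 only, at an internal non-coding start. Of the 15 Cyp2c genes 6 had no peak over gene and flank in either library, and the highest counts there were 4 and 4 at Cyp2c23 and 4 and 2 at Cyp2c70. The 9 Cyp3a genes had 6 with none, and Cyp3a57 had the most, 2 and 2. Among the closed Cyp2d genes the highest count was 3 and 3 at Cyp2d11, among the Cyp2b genes 4 and 5 at Cyp2b19, and among the closed Cyp2a genes 1 and 0 at Cyp2a22. The single genes Cyp2e1, the ethanol-oxidizing enzyme, Cyp2f2 and Cyp2g1 had 1 and 0, 2 and 2, and 1 and 1. Nr1i2 and Nr1i3, the receptors that induce these genes in liver, and Hnf4a, a liver factor, had no promoter peak in either library. Of the 17 receptor and factor genes listed, these included, 11 had one in both libraries, which is near the 63.6% of all protein-coding genes. Srebf2, the activator of cholesterol synthesis, was the highest at 8 and 8.63.

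Of the 5 genes without one of these roles, 2 were open in both libraries. Cyp20a1 (chr1:60343323-60388060), an enzyme whose substrate is not established, had 3.82 and 4.74 over its first exon. Cyp2s1 had 0.395 and 0.499, at a peak near the start of Gm26707 as well. Cyp2t4 had 0.580 in library 2 only. Cyp2w1 had no promoter peak but 5 peaks over gene and flank in each library, and Cyp2ab1 had 1 in each. P450 enzymes with other names, taken as a separate list of 2, gave a peak at Tbxas1, thromboxane synthase (0.715 and 1.38), and none at Ptgis, prostacyclin synthase.

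Most P450 enzymes need electrons from partner proteins. The promoters of 7 of 7 partners were open in both libraries, against 63.6% of all genes. Their list median was 6.14, against 3.32 for all open promoters. Por, the reductase that serves most P450 enzymes of the endoplasmic reticulum, had 7.62 and 6.04. Fdxr, which serves the mitochondrial ones, had 6.76 and 5.94, and its partner Fdx1 was the lowest of the list at 0.987 and 1.23. Cyb5a, cytochrome b5, had 7.28 and 7.08. Of 6 partners in steroid synthesis 4 were open in both libraries, which is near the 63.6% of all genes. Srd5a1, a steroid reductase, was the highest at 8.42 and 6.97, and Hsd3b1 and Hsd17b1 had no promoter peak.

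Beyond the promoters, the gene bodies and flanks held few peaks. The median P450 gene had 1 peak over gene and 10 kb on either side in both libraries, against 4 for all genes, although the P450 genes were longer (median 22.6 against 17.4 kb). Per 100 kb the medians were 2.74 and 2.53 against 7.79 and 8.29. No peak at all in either library was found for 33 P450 genes, against 14% of all genes. Of those 33, 21 belonged to the foreign compound role and 8 to the fatty acid role. The distinct peaks near P450 genes numbered 163 in library 1, of which 78.5% overlapped a peak of library 2, and 168 in library 2, of which 73.8% overlapped one of library 1.

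The 10 strongest peaks over P450 genes and flanks that lay over 500 bases from any annotated start had means from 2.14 to 2.67 and were listed in both libraries. The first stood beside Cyp2w1 at chr5:139364241-139364440, inside the gene 3110082I17Rik, with 2.55 and 2.79. Another lay within Cyp2w1 itself (2.17 and 2.23), 745 and 765 bases from an annotated start. Cyp2w1 thus counted as open with a window of 2000 bases, though not with 500. Cyp46a1 had one 1081 bases upstream (2.39 and 2.81) and one past its end (2.30 and 2.59). The Cyp4f genes had 3: inside Cyp4f41-ps near Cyp4f13 (2.13 and 3.03), at the end of Cyp4f17 (2.43 and 2.28) and in Cyp4f16 (1.89 and 2.39). The others were the peaks of Cyp26b1 and Cyp1b1 given above and one inside Egln2 near Cyp2t4 (2.60 and 1.87). All 10 held footprints in both libraries, from 2 to 5.

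Position in duplicated clusters went with closed promoters. Of the 75 P450 genes within 200 kb of another, in 12 clusters, 12 were open in both libraries (16%). Of the 25 solitary ones 11 were (44%), against 63.6% of all protein-coding genes. The 14 genes from Cyp2c55 to Cyp2c70 on chromosome 19 and the 8 from Cyp3a57 to Cyp3a59 on chromosome 5 had no promoter peak in either library. The 6 genes from Cyp4f39 to Cyp4f15 each had one in at least 1 library. Near-identical copies limit where reads can be placed. Of the 36-base words in the window around the start, the share found once in the genome had a median of 96.1% for P450 genes and 100% for all genes. It was 87.2% for the clustered and 100% for the solitary P450 genes, and the 11 genes under 50% were all clustered. Their median ratios of observed to expected CpG differed too, at 0.13 for clustered and 0.31 for solitary genes. Position apart from uniqueness and CpG was not tested. Among the 60 P450 genes with 90% or more unique words 21 were open (35%), against 71.1% of such genes in general. Of the 29 with 50 to 90% it was 2, and of the 11 under 50% none, against 37.3% and 9.31% of all genes. The part of low uniqueness in the low counts of Cyp2a, Cyp2b, Cyp2c, Cyp3a and Cyp4a was not tested beyond this split.

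P450 starts were poor in CpG, the dinucleotide that marks the broadly used promoters of mammals. The ratio of observed to expected CpG had a median of 0.15, against 0.55 for all genes, and 84 of the 100 lay under 0.4. Within that class 11 P450 genes were open (13.1%), against 23.1% of all genes with so little CpG. From 0.4 to 0.6 the counts were 5 of 7 against 76.5%, and from 0.6 up 7 of 9 against 95%. With both limits together, CpG under 0.4 and 90% or more unique words, 9 of 44 P450 genes were open (20.5%), against 28.7% of 6088 genes. The gap to all genes in the share open was thus smaller in each class of CpG than over all classes. Median signals of the open P450 genes were 0.959 under 0.4, 0.683 from 0.4 to 0.6 (5 genes) and 3.62 from 0.6 up. Those of all open genes were 1.51, 2.23 and 4.01, so the gap in signal differed by class. Of the 69 closed P450 genes 68 had a ratio under 0.4, the exception being Cyp24a1. Most closed genes in general did too, 6327 of 7161, and so did 11 of the 23 open P450 genes.

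**Figure D4:**
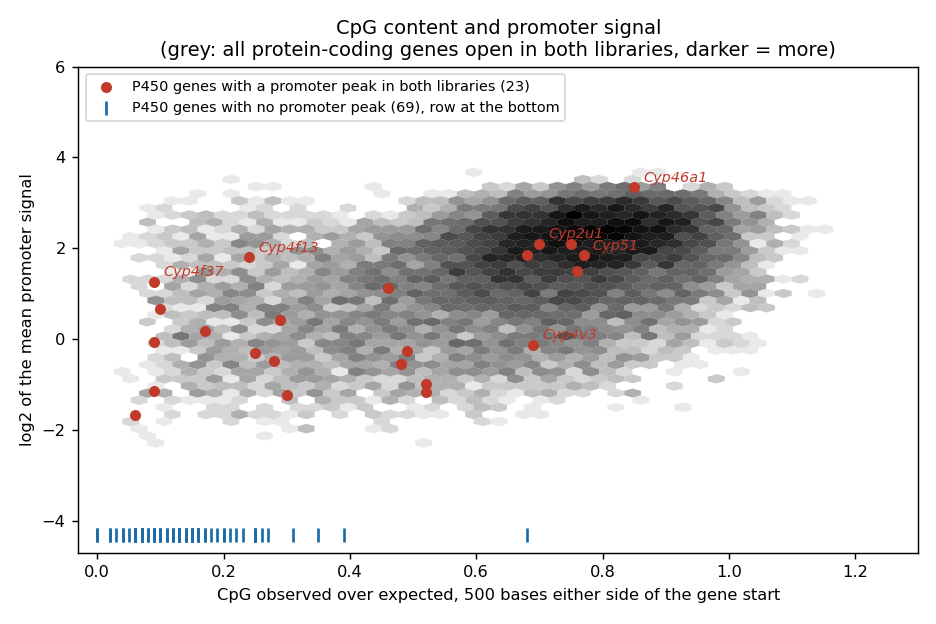
CpG observed over expected around the gene start (horizontal) against the log2 of the mean promoter signal for the 23 P450 genes open in both libraries (red), over all such protein-coding genes (grey, darker where denser). The row of blue ticks gives the CpG ratio of the 69 P450 genes with no promoter peak. Of these 68 lie under 0.4, against 6327 of 7161 such genes in general. Cyp46a1 lies at the upper right with 0.85.

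The letters around the gene starts differed between open and closed P450 genes. Letters, like CpG above, were read around the 5′ end of each gene. There Cyp17a1, Cyp1b1 and Cyp4f37 were not open in both libraries, since their promoter peaks lay at internal starts. With the 5′ end only, 12725 of all genes were open in both libraries, against 13956. In the 300 bases from 250 before to 50 after the start, both strands, the GC box occurred in 13 of the 23 open and 3 of the 69 closed P450 genes, 56.5% and 4.35%, against 59.4% of all open and 11.9% of all closed promoters. The TATA box (TATAAA) went the other way: 0 of 23 open and 30 of 69 closed P450 genes had it, 43.5%, against 7.42% of all open and 22.6% of all closed promoters. It was found in 6 of 7 closed Cyp2d genes, 9 of 15 Cyp2c genes and 5 of 9 Cyp3a genes. The letters CAAAGTCCA, read by Hnf4a, occurred in 11 closed P450 genes (15.9%) and no open one, against 0.754% of all closed and 0.251% of all open promoters. These 11 were 6 Cyp2c genes, 4 Cyp3a genes and Cyp8b1. Duplicated genes share ancestry, so such matches are not independent of each other, although all 11 windows differed in sequence.

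The NF-Y box (CCAAT) was alike in both classes, at 56.5% of open and 52.2% of closed P450 genes, against 39% of all genes. The remaining motifs, out of 11 searched, were found in at most 3 P450 genes each. They were the ETS site CCGGAAG (10.8% of all genes), the Nrf1 site GCGCATGCG (2.48%), the cyclic AMP element TGACGTCA (2.43%), the E-box CACGTG (7.75%), the sterol element TCACCCCAC (0.520%), the xenobiotic element TNGCGTG (5.81%) and the SF-1 site CAAGGTCA (1.45%). No match says only that these letters were not in the window.

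A pair of closed promoters shows the contrast with the open ones printed above. Chosen after their values were seen, they are the 150 bases before the start of Cyp8b1 and of Cyp2c67, where the capitals mark the Hnf4a and TATA letters.
Cyp8b1, − strand, chr9:121916306-121916455: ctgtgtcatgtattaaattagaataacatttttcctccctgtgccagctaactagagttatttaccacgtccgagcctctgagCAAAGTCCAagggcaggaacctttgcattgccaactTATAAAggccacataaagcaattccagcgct
Cyp2c67, − strand, chr19:39649052-39649201: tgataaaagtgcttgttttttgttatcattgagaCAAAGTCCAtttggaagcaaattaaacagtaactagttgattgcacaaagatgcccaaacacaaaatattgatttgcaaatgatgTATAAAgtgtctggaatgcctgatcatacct
The TATA letters begin 31 bases before the start in both. The Hnf4a letters begin 67 bases before it in Cyp8b1 and 116 bases in Cyp2c67. Of words around these starts 99.8% and 74.4% were unique in the genome, and neither library listed a peak or a footprint in the window of either gene. The 150 bases before closed Cyp3a16, Cyp3a41a and Cyp3a41b, not printed, also held both sets of letters. There the TATA letters began 126, 122 and 122 bases before the start, ahead of the Hnf4a letters at 99, 95 and 95.

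**Figure D5:**
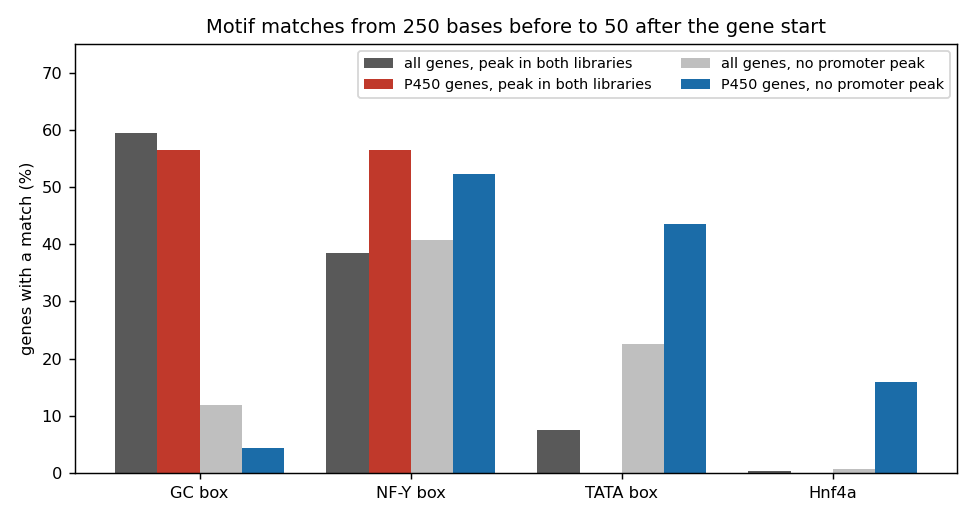
Share of genes with a match to the GC box, NF-Y box, TATA box and Hnf4a letters near the start, for open (a promoter peak in both libraries) and closed (none) promoters of all genes and of P450 genes. The TATA box reaches 43.5% and the Hnf4a letters 15.9% in closed P450 genes and 0 in open ones, while the GC box reaches 56.5% in open and 4.35% in closed ones.

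Open P450 promoters had fewer footprints each than open promoters in general, with medians of 4 and 4 against 6 and 7. Their signals were lower too (median 1.13 against 3.32), and promoters of like signal were not compared. Of the 23, 21 had a footprint near a start in both libraries (91.3%), which is near the 96.7% of all open genes. Cyp20a1 had the most, 11 in each library, and Cyp46a1 had 8 and 10. The 2 genes without footprints in both were Cyp27a1 and Cyp4f40, each with none in library 1 and some in library 2 (4 and 3).

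A start of another gene within 500 bases was rarer for P450 genes, at 10 of 100, than for all genes, at 22.6%. Where such starts lie, a peak cannot be assigned to 1 gene. Without the peaks near starts of other genes 20 P450 genes were open in both libraries, since Cyp2s1, Cyp2u1 and Cyp4x1 dropped out. Cyp39a1 stayed through a weaker peak, since its strongest one is near a start of Slc25a27. With the starts of coding transcripts only, an alternative chosen after seeing the data, the count was 20 as well, without Cyp17a1, Cyp1b1 and Cyp4f37. All genes then gave 49.5% and 62.1%.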

How the data were processed

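DNase-seq of 2 cortex libraries was used. Per the deposited readme files, peaks, footprints and per-base tables were made from the alignments of each library on mm10, not pooled. Aligner, callers and versions: not given in the sources used here. Peak signal was deposited by the authors with no stated normalization. The authors deposited per-base tables that give the q-value (false discovery rate) of the cut rate where it is under 0.05. Each deposited footprint has the q-value 0.01, taken as its threshold. How reads of the CAST genome were placed is not given. Peaks (the longer list of each library) were overlapped by at least 1 base with windows of 500 bases around every GENCODE M21 start, and with genes and 10 kb on either side. CpG, GC and the share of unique 36-base words were computed on GRCm38 around the 5′ end of each gene. Motif searches used both strands. Intervals are exact binomial (Clopper-Pearson), at 95%, and cover counting only. The overlap and word counting steps were tested on simulated data. The members and lists were chosen with earlier results of these data known. All members with a promoter peak in at least 1 library are named, the others by subfamily with the highest peak counts, distal peaks by the 10 highest mean signals, and sequences by role. Alternatives were single libraries and other windows, flanks, lists and thresholds. Software versions were numpy 2.4.6, numba 0.67.0, scipy 1.17.1, pandas 2.3.3 and matplotlib 3.10.9 under Python 3.11.15.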

Additional observations from a re-analysis of the deposited data

How the results depend on the processing

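No paired analysis was possible because there is 1 group only. The number of P450 genes open in both libraries was 20 with a window of 250 bases, 29 with 2000 bases, 18 with the shorter peak list (without Cyp27a1, Cyp2d22, Cyp2s1, Cyp4f14 and Cyp4f40), 16 with peaks above the median signal (without these and Cyp1b1 and Cyp2j13) and 23 with equal peak numbers, against 23, and over all genes 13626, 14883, 13058, 12744 and 13923, against 13956. It was 27 in each library alone, where all genes gave 14154 to 14579. Footprint counts ranged from 18 to 26 and those by false discovery rate from 20 to 29 over their alternatives, single libraries included. The counts of peaks around genes moved most. The median per P450 gene, 1 as reported, was 0.25 without a flank, 3.5 with 50 kb and 0.5 with the shorter list, and 1 in each library alone. Genes with no peak, 33 as reported, were 50 without a flank, 8 with 50 kb and 47 with the shorter list, and 39 to 43 in single libraries. The 31 genes with a promoter peak in at least 1 library had a median mean signal of 0.813, which was 0.959 as a sum of peaks, 0.683 with 250 bases and 1.08 with 2000 bases, and 0.776 to 0.869 in single libraries. The causes were not tested. Read depth is unknown and limits which weak peaks are listed.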

Other observations

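The P450 pseudogenes, which the protein-coding rule leaves out, were mostly closed: 2 of 30 had a promoter peak in both libraries. The share over all pseudogenes was not computed, so this count has no background beside it. Cyp4f41-ps, a transcribed copy beside Cyp4f13 on chromosome 17, had 3.70 in library 1 and 4.13 in library 2, above all coding Cyp4f genes. Cyp2j15-ps on chromosome 4 had 1.74 and 2.03, above all 8 coding Cyp2j genes. The pseudogenes of the Cyp2a, Cyp2b, Cyp2c, Cyp2d, Cyp3a and Cyp4a genes had none in either library. Both exceptions thus lie in the subfamilies with several open coding genes. Of these values no test was made.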
